A study of Mus musculus with 26 samples.

Results

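Imprinted genes are expressed mainly or solely from the allele of a single parent. The set described here was chosen as a list of 36 known imprinted genes, each kept if it had a row in the RNA table or a baited promoter fragment in at least 1 promoter-capture Hi-C (PCHi-C) list. Of the 36, 32 were found, among 19166 genes named in either kind of file. All 32 had an RNA value, 30 of them also had a bait, and Ube3a and Impact had an RNA value alone. H19, Meg3, Peg10, and Snrpn had neither under their own names and are not analysed here as genes.

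Imprinted genes lie in clusters, and the parental mark is DNA methylation laid down in the egg or sperm over an imprinting control region (ICR). ZFP57 and TRIM28 protect that methylation after fertilization, and CTCF binds the unmethylated copy of some ICRs and blocks enhancers from reaching a promoter on the far side. In other clusters, the unmethylated ICR is the start of a long noncoding RNA, such as Kcnq1ot1 or Airn, that silences its neighbors on the same chromosome. Many imprinted genes set fetal and placental growth, and several are imprinted only in some tissues. The parental label of a gene below is therefore its known label, and the files hold no allelic values.

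The study compared 3 mouse cell populations. Wild-type (WT) embryonic stem cells (ESCs) were the E14Tg2a line, grown in serum with leukemia inhibitory factor (LIF). Nanog-/- ESCs were the RCNβH-B(t) line, derived from E14Tg2a by deletion of Nanog and likewise kept in serum with LIF, with hygromycin during expansion, and they stand for 1 line. Epiblast stem cells (EpiSCs) were derived from 129S2 embryos and grown on fibronectin in N2B27 medium with Activin A and basic fibroblast growth factor, so cell state, strain, and medium cannot be told apart in that comparison. The strain field of the labels reads C57BL/6, in contrast to the growth text.

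In PCHi-C, HindIII fragments held near each other by cross-linking are ligated, and ligation products with a promoter are captured. The labels name 5 lanes for WT ESCs, 2 for EpiSCs, and 5 for Nanog-/- ESCs, and the RNA sequencing had 3, 4, and 3 samples. The authors deposited 1 combined contact list and 1 median RPKM (reads scaled by transcript length and by library depth) for each population, so no value below has a replicate error and no p-value is given. Their own RNA fold changes and significance calls were deposited beside the medians and were not used here. A contact is a pair of fragments with a CHiCAGO score of at least 5, and the score weighs the reads of a pair against the background at its distance. The lists hold 100492 different pairs with 2177284 reads in WT ESCs, 87369 pairs with 1651286 reads in EpiSCs, and 74931 pairs with 1438555 reads in Nanog-/- ESCs. A pair missing from a list was not called there, which does not show that the contact was absent. Nanog itself was at 418 RPKM in WT ESCs and 22.3 RPKM in Nanog-/- ESCs. All 6 measured naive pluripotency genes were at least 2-fold lower in EpiSCs, after the scaling described below. Of 7 primed pluripotency genes, only 3 were at least 2-fold higher there, and 0 were lower. Of 3 general pluripotency genes, 2 (Sox2 and Nanog) were at least 2-fold lower in EpiSCs. All 5 primitive endoderm markers were at least 2-fold higher in Nanog-/- ESCs, where they summed to 59.2 RPKM against 3.13 RPKM in WT ESCs.

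The sequences that the results return to are given first, all from RefSeq on GRCm38.p6, 5′ to 3′ in the direction of the gene. Promoter windows of 300 bases, from 250 before to 50 after a start site, were found for 28 of the 36 genes, 44 windows in all. TGCCGC, the letters that ZFP57 binds when they are methylated, occurred on either strand in 12 of the 44 windows (27.3%) and in 11.6% of all 32851 windows. The member windows had a median of 15.5 CpG against 7 over all windows, and these shares are not matched for CpG. Mest had 2 matches in its main window. The 250 bases before that start, chr6:30737800-30738049 on the plus strand, are shown with the matches in capitals (GCGGCA, the motif read from the other strand), because Mest had the largest difference between EpiSCs and WT ESCs.
Mest: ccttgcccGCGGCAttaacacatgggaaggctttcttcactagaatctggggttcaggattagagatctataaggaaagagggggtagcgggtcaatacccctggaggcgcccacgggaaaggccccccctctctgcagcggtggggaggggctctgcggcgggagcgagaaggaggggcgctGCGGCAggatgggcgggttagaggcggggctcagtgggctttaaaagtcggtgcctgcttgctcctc
Grb10 is shown because its window had the most CpG (45) among the genes that differed. The 250 bases before the start, chr11:12037421-12037670 on the minus strand, hold 40 of them, and the single match of the window lies after the start.
Grb10: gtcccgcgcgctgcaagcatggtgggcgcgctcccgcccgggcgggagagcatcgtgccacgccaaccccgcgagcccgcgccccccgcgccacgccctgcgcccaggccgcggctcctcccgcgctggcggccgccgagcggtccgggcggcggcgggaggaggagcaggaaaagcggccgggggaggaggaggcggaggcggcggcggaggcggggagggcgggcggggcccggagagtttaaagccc
The Igf2 start that lies in the Igf2 bait has 1 CpG in its 250 upstream bases (chr7:142666817-142667066, minus strand). The other 3 Igf2 starts lie on another fragment, whose bait is named Mir483.
Igf2: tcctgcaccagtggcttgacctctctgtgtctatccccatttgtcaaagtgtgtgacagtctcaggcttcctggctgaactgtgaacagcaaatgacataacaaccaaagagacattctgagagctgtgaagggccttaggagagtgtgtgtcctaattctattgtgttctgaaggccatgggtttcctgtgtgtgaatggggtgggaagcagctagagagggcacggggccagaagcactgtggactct
Peg3 and Usp29 are transcribed away from each other, from starts 164 bases apart. The 146 bases between their annotated exons, chr7:6730432-6730577, are written in the direction of Peg3 (minus strand) and hold no match.
Peg3 to Usp29: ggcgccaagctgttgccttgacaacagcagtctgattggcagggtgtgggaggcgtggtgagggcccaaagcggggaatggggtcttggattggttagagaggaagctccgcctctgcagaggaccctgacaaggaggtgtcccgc

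The RNA levels of the 32 genes ran from 0.128 RPKM (Klf14) to 181 RPKM (Phlda2) in WT ESCs. Before the comparison, EpiSC values were divided by 1.89, the median EpiSC to WT ESC ratio over 9077 genes, since the median gene was 0.91 higher on the log2 scale in the deposited EpiSC column. Nanog-/- values were left as deposited, with the median gene 0.07 higher on the log2 scale. All differences below are on the log2(RPKM + 1) scale, and a gene was called when it differed by at least 2-fold. In the text, EpiSC levels in RPKM are given as deposited unless called scaled. Differences from EpiSCs are after scaling unless stated, so they are smaller than the printed levels imply. Differences of genes near 1 RPKM are understated on this scale. In the plot of RNA levels, EpiSC values stand to the right of both ESC values for Igf2, Mest, Plagl1, Grb10, and Gnas, and the ESC values of most genes lie close to each other.

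**Figure D1:**
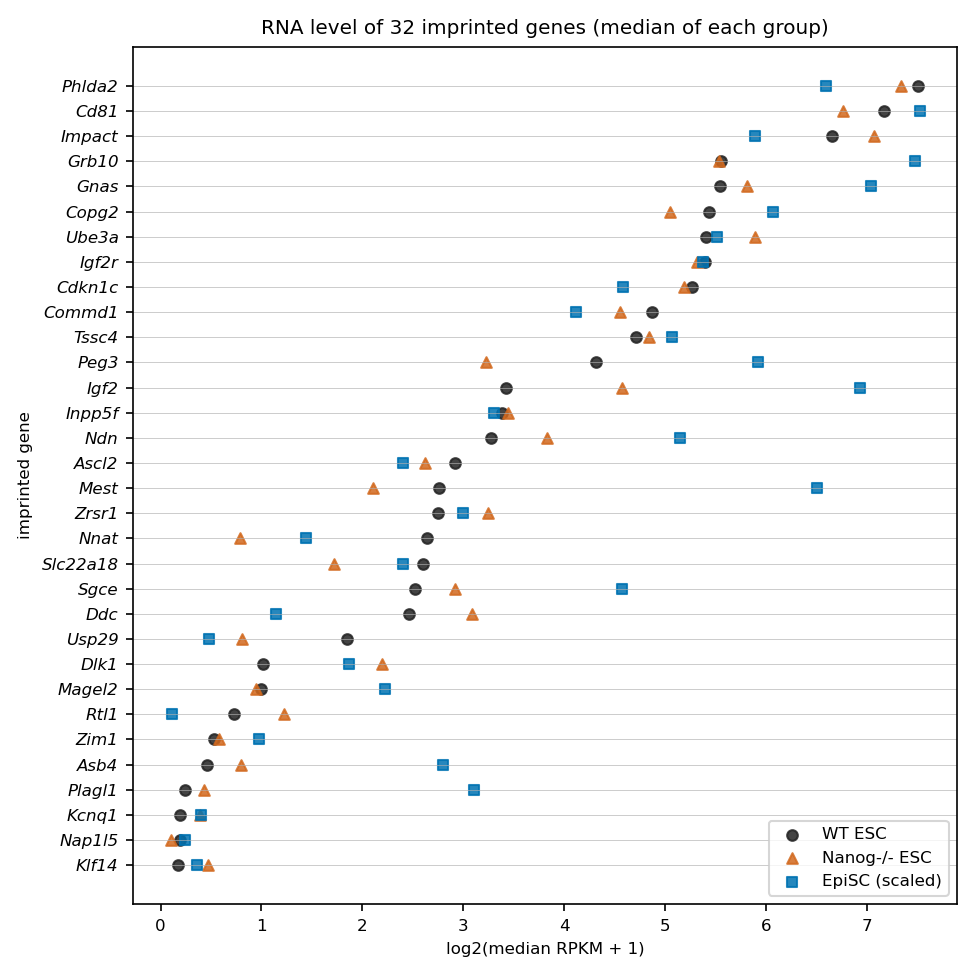
Median RNA level of each of the 32 imprinted genes, as log2(RPKM + 1), in WT ESCs (circles), Nanog-/- ESCs (triangles), and EpiSCs (squares, divided by 1.89). Each point is the authors' median of 3 or 4 samples, with no error available, and the genes are ordered by their WT ESC level, from Klf14 at 0.128 RPKM to Phlda2 at 181 RPKM.

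The imprinted genes of this set were more often higher in EpiSCs than lower. Of the 27 with at least 1 RPKM in either population, 10 were at least 2-fold higher in EpiSCs and 3 at least 2-fold lower, against 15.5% and 14.4% of all 10532 genes. Their median difference was 0.36, against 0.01 over all genes. With the EpiSC values left as deposited, 16 were higher and 1 lower, against 43.0% and 8.27% of all genes, and all 10 that were higher with scaling stayed so. By known parental origin, 7 of 14 paternally expressed genes were higher and 3 were lower, and 2 of 12 maternally expressed genes were higher and none lower, with no test of that contrast. Gnas, which has maternal, paternal, and biallelic promoters, was the tenth. Of 5 imprinted genes outside these clusters, described at the end, 0 were higher and 2 lower. In the same comparison, 3 of 4 fibroblast markers, 3 of 4 primitive endoderm markers, and all 4 mesendoderm markers were at least 2-fold higher in EpiSCs, and their part in these differences was not tested.

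**Figure D2:**
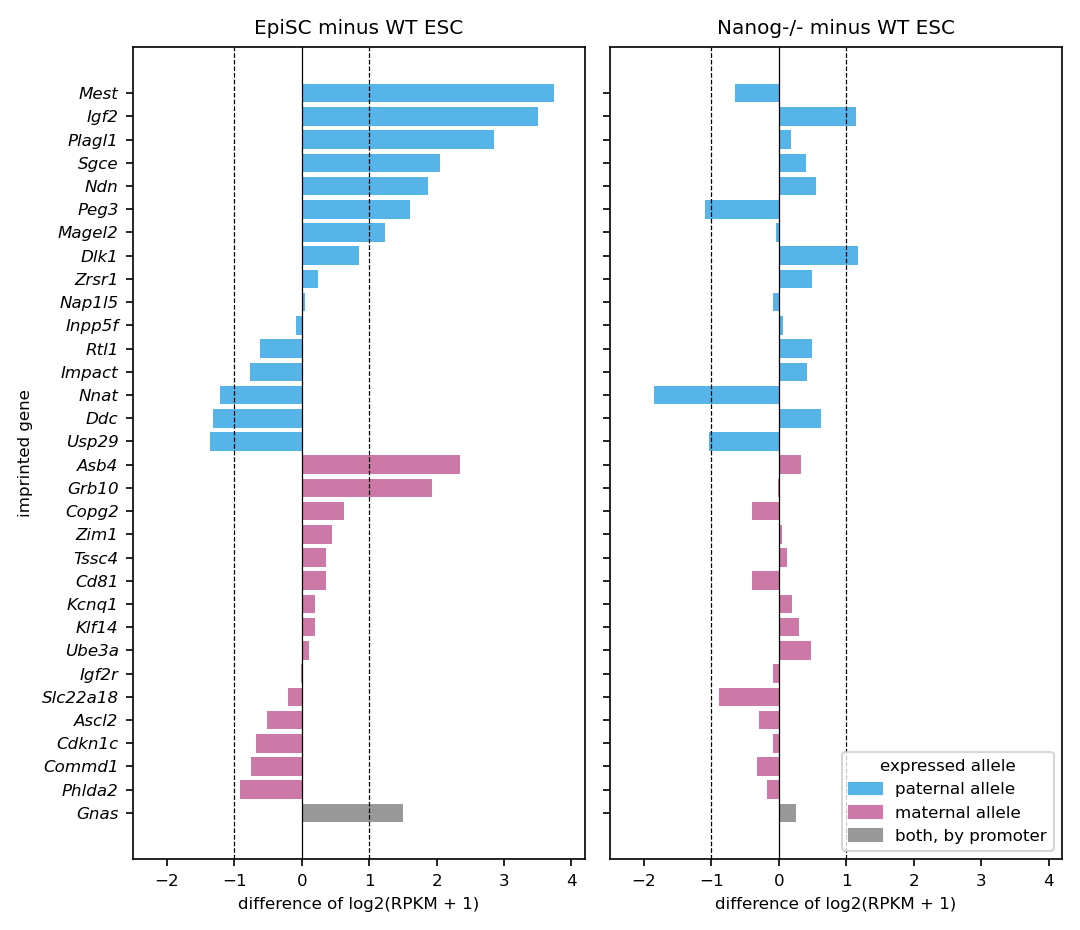
Difference of log2(RPKM + 1) of each imprinted gene between EpiSCs and WT ESCs (left) and between Nanog-/- and WT ESCs (right), with bars colored by the parental allele known to be expressed. Dashed lines mark 2-fold. The paternally expressed genes span 3.74 for Mest to -1.37 for Usp29 on the left with EpiSC values scaled, where the sign of 7 genes within 2-fold, Igf2r and Cdkn1c among them, turns without scaling.

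Igf2, a fetal growth factor, was at 9.74 RPKM in WT ESCs, 22.8 RPKM in Nanog-/- ESCs, and 229 RPKM in EpiSCs as deposited, a scaled difference of 3.51. Igf2r, the receptor that clears IGF2 and is expressed from the maternal allele, was at 41.2, 38.8, and 76.6 RPKM in the same order, a scaled difference of -0.02 that becomes positive (0.88) without scaling. Grb10, an adaptor that restrains insulin and IGF receptor signaling, was at 45.8 RPKM in WT ESCs, 45.3 RPKM in Nanog-/- ESCs, and 335 RPKM in EpiSCs, a difference of 1.93. The ligand and the adaptor thus stood far above the median gene in EpiSCs, and the receptor did not. Plagl1, a zinc-finger transcription factor, was listed at 0.185 RPKM in WT ESCs, 0.346 RPKM in Nanog-/- ESCs, and 14.3 RPKM in EpiSCs, a difference of 2.86. Gnas, the stimulatory G-protein alpha subunit, was at 45.7, 55.0, and 246 RPKM, a difference of 1.49.

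Mest, which encodes a hydrolase-like membrane protein, was at 5.77 RPKM in WT ESCs, 3.31 RPKM in Nanog-/- ESCs, and 169 RPKM in EpiSCs, a difference of 3.74. Its neighbor Copg2, a coatomer subunit, differed by 0.63, and Klf14, a transcription factor, was below 1 RPKM in all 3 populations. In the Peg10 cluster, Sgce (epsilon-sarcoglycan) differed by 2.05 and Asb4 (an ankyrin and SOCS box protein) by 2.34. Asb4 was listed at 0.376 RPKM in WT ESCs and 11.3 RPKM in EpiSCs. Ndn and Magel2, MAGE-family genes of the Prader-Willi region, differed by 1.87 and 1.23, whereas Ube3a, the ubiquitin ligase at the other end of that region, differed by 0.10. The Peg3 cluster held genes on both sides. Peg3, a zinc-finger gene, was at 18.9 RPKM in WT ESCs and 112 RPKM in EpiSCs as deposited, a scaled difference of 1.61. Usp29, a ubiquitin peptidase gene, was at 2.60 RPKM and 0.747 RPKM, a scaled difference of -1.37. Those starts lie at either end of the stretch printed above. The library kit did not mark strand, so reads where genes on opposite strands overlap cannot be told apart.

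Only Ddc and Nnat joined Usp29 among the members lower in EpiSCs. Ddc, the aromatic amino acid decarboxylase next to Grb10, was at 4.49 RPKM in WT ESCs, 7.50 RPKM in Nanog-/- ESCs, and 2.28 RPKM in EpiSCs, a difference of -1.31. Nnat, a small membrane protein gene, was at 5.25, 0.726, and 3.22 RPKM, a difference of -1.21. Without scaling, Ddc and Nnat are no longer past 2-fold, at -0.74 and -0.57. The 7 genes of the Kcnq1 cluster gave no call in EpiSCs. Phlda2, which restrains placental growth, had a scaled difference of -0.92, and Cdkn1c, the cell-cycle inhibitor p57, one of -0.69. Cd81, a tetraspanin gene, was at 0.36, and Kcnq1, the potassium channel gene, was under 1 RPKM in every population. Without scaling, the sign turns for Ascl2, Cdkn1c, Slc22a18, Igf2r, Commd1, Inpp5f, and Impact, whose scaled differences were all within 2-fold.

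The remaining members were within 2-fold after scaling or barely expressed. Impact, a translation regulator, was at 99.5 RPKM in WT ESCs, 133 RPKM in Nanog-/- ESCs, and 110 RPKM in EpiSCs as deposited, and Commd1, a copper-metabolism gene, was at 28.3, 22.4, and 30.7 RPKM. Tssc4 was at 25.2, 27.6, and 61.4 RPKM, Zrsr1 at 5.74, 8.48, and 13.1 RPKM, and both stood 2-fold higher in EpiSCs only without scaling. Inpp5f, a phosphoinositide phosphatase gene, was at 9.43, 9.86, and 16.7 RPKM, and Ascl2, a placental transcription factor gene, at 6.55, 5.15, and 8.10 RPKM. Klf14, Kcnq1, and Nap1l5, a histone chaperone-like gene, stayed below 1 RPKM in every deposited column, and Zim1 reached 1.82 RPKM in EpiSCs before scaling.

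Most of the set was within 2-fold in Nanog-/- ESCs, though the shares called were above those of all genes, on few genes. Of 25 genes with at least 1 RPKM, 2 (8%) were at least 2-fold higher in Nanog-/- ESCs and 3 (12%) at least 2-fold lower. Over all 10175 genes, the shares were 2.59% and 2.08%. The median difference of the set was -0.02. All 5 are paternally expressed. Igf2 was higher by 1.15 and Dlk1, a transmembrane regulator related to Notch ligands, by 1.17, from 1.03 RPKM to 3.57 RPKM. Nnat was lower by the most, from 5.25 RPKM to 0.726 RPKM (-1.86). Peg3 went from 18.9 RPKM to 8.33 RPKM (-1.09) and Usp29 from 2.60 RPKM to 0.756 RPKM (-1.04). Thus Peg3 was lower than in WT ESCs in the Nanog-/- line and higher in EpiSCs, and Usp29 was lower in both, in comparisons that share the WT ESC value. The 11 maternally expressed genes tested gave no call, with no test of that contrast. Slc22a18, a transporter gene, came nearest, from 5.08 RPKM to 2.29 RPKM (-0.89), and was past 2-fold with a pseudocount of 0.1. Primitive endoderm markers were higher in the same column, as given above, and their part in the Igf2 and Dlk1 values was not tested.

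Factors that maintain imprints were measured in the same table, in 1 list with the de novo DNA methylation genes Dnmt3a, Dnmt3b, and Dnmt3l. Of 10 genes of that list, 4 were at least 2-fold lower in EpiSCs after scaling and none higher, against 14.4% and 15.5% of all genes. The 4 were Zfp57, Trim28, Dppa3, and Dnmt3l, and Dppa3 is also among the naive pluripotency genes above. Zfp57 was at 112 RPKM in WT ESCs and 72.4 RPKM in EpiSCs as deposited, a scaled difference of -1.52, and Trim28 was at 970 and 825 RPKM (-1.15). Without scaling, both are within 2-fold. Dppa3, which shields methylation in the zygote, was at 74.1 RPKM in WT ESCs, 13.6 RPKM in Nanog-/- ESCs, and 0.0603 RPKM in EpiSCs. Dnmt3l, the cofactor of the de novo DNA methyltransferases, was at 183, 392, and 0.822 RPKM. Dnmt3a, a de novo methyltransferase, was 1.50 higher in Nanog-/- ESCs, and Ctcf differed by -0.23 in EpiSCs and 0.20 in Nanog-/- ESCs. Of 12 other genes within the clusters, 4 were higher in EpiSCs (Calcr, Casd1, and Pon2 of the Peg10 cluster, and Osbpl5) and 1 was lower (Cobl), and none was called in Nanog-/- ESCs. Cobl, at 31.5 RPKM in WT ESCs and 22.0 RPKM in EpiSCs as deposited, is within 2-fold without scaling. Calcr and Osbpl5 were named after their values were seen.

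Baits named after imprinted genes were well connected in all lists. The 30 baits had a median of 8 contacts in WT ESCs, 6.5 in the EpiSC list, and 5.5 in Nanog-/- ESCs, against medians of 3, 3, and 2 over all baits, and 23, 22, and 22 of them stood above the median of all baits. They formed 326, 282, and 214 different pairs, with no pair between chromosomes. The bait named Usp29 had the most contacts in WT ESCs (35), followed by Asb4 (33), Klf14 (28), Igf2 (26), and Gnas and Mest (23 each). That bait lies 224 kb from the Usp29 start, so its contacts are not those of the Usp29 promoter. The bait is kept in the totals and shares here and below. So are the Mest and Zrsr1 baits, which hold no RefSeq start of their gene. Dlk1 had none in WT ESCs, Ascl2, Sgce, and Ndn had none in EpiSCs, and Ndn and Plagl1 had none in Nanog-/- ESCs. Among the 22 baits with at least 5 contacts in either list, 1 (Tssc4) had at least 2-fold more in EpiSCs and 4 (Commd1, Ddc, Phlda2, and Zim1) at least 2-fold fewer, against 14.6% and 28.8% of all baits. Among 23 in Nanog-/- ESCs, 1 had more (Tssc4 again) and 7 fewer (Klf14, Mest, Nap1l5, Peg3, Rtl1, Usp29, and Zim1), against 6.25% and 30.3%. No share of the members stood clearly above the background in either comparison.

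**Figure D3:**
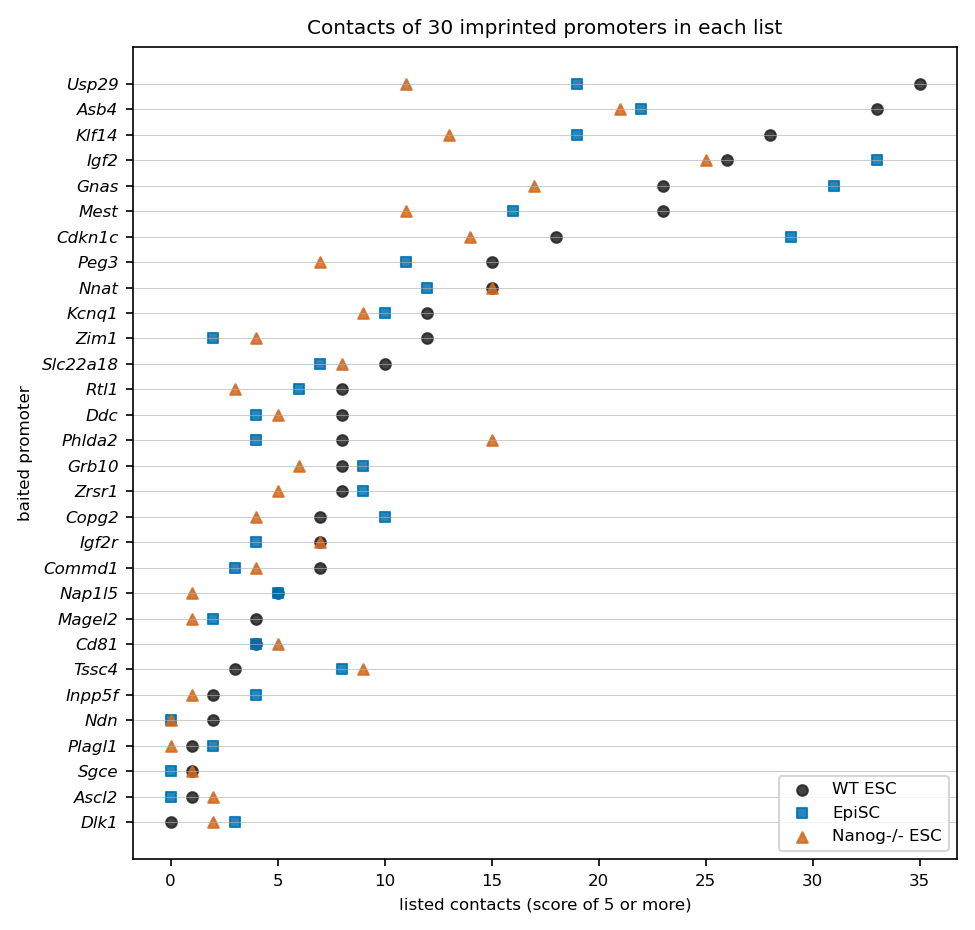
Number of listed contacts (score of 5 or more) of each of the 30 baits named after imprinted genes in WT ESCs (circles), EpiSCs (squares), and Nanog-/- ESCs (triangles), ordered by the WT ESC count. The bait named Usp29, which lies 224 kb from the Usp29 start, ranges from 35 in WT ESCs to 11 in Nanog-/- ESCs. Igf2, Gnas, and Cdkn1c have their highest counts in EpiSCs (33, 31, and 29).

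Of the 326 WT ESC pairs of these baits, 145 (44.5%, Wilson 95% interval 39.2 to 49.9) recurred in EpiSCs, against 39.6% for the whole WT ESC list. In the Nanog-/- list, 128 were found (39.3%, 34.1 to 44.7), against 41.8%. Intervals cover counting error only and treat pairs as independent, though many share a bait, so they can be too narrow. The pairs were long, with a median distance of 277 kb in WT ESCs against 139 kb over all pairs. For pairs beyond 200 kb, 40.6% (34.3 to 47.3) were found in EpiSCs against 31.5% of all such pairs, and 34.2% (28.3 to 40.8) in Nanog-/- ESCs against 22.8%. At 50 to 200 kb, the shares were 43.7% against 41.1% in EpiSCs and 35.2% against 40.9% in Nanog-/- ESCs. Within 50 kb, they were 69.4% (25 of 36 pairs) against 48.9% and 77.8% (28 of 36) against 71.3%.

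Contacts were sorted by whether they stayed in the cluster, taken as the span of the baits of its genes with 100 kb on either side. In WT ESCs, 183 of 334 contacts, counted per bait, stayed inside (54.8%, 49.4 to 60.0), and 152 of 288 did so in EpiSCs (52.8%, 47.0 to 58.5). In Nanog-/- ESCs, 151 of 226 did so (66.8%, 60.4 to 72.6), in a list whose pairs are shorter as a whole, with a median of 74.1 kb. The clusters ranged from all contacts inside to nearly all outside. Counted as different pairs and not per bait, all 53, 57, and 55 of the Kcnq1 cluster and all 33, 22, and 21 of the Peg10 cluster stayed inside. Numbers are in the order WT ESCs, EpiSCs, Nanog-/- ESCs. Of the Igf2 contacts, 25 of 26, 27 of 33, and 23 of 25 lay outside, and of the Gnas contacts, 23 of 23, 31 of 31, and 15 of 17. The spans were 995 kb for Kcnq1, 1824 kb for Peg10, 466 kb for Igf2, and 223 kb for Gnas. Because H19 has no bait of its own name, the Igf2 span ends 100 kb from the Igf2 bait on the H19 side. The shares were not matched for span, so they cannot tell a difference between clusters from the width of the span.

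The Igf2 bait holds the most upstream RefSeq Igf2 start, and the other 3 starts lie on the fragment named Mir483. The Igf2 bait reached past H19 in every list. Its contacts lay on the H19 side, from 10.8 kb to 399 kb away, over Nctc1, Mrpl23, Tnnt3, Lsp1, and Ifitm10. Mrpl23, a mitochondrial ribosomal protein gene, gave the strongest contact in WT ESCs, at 137 kb (25 reads, score 17.46), and scored 16.84 in EpiSCs and 8.88 in Nanog-/- ESCs. An intron of Ifitm10, at 333 kb, gave the strongest contact in EpiSCs (23 reads, score 30.40), against 8 reads (5.72) in WT ESCs and 7 reads (6.78) in Nanog-/- ESCs. Within 100 kb, Igf2 had no contact in WT ESCs, 5 in EpiSCs with 148 reads, and 2 in Nanog-/- ESCs with 75 reads. Most of these reads belong to 1 pair at 10.8 kb, with the fragment named Mir483, which lies inside Igf2 and holds its other 3 starts. That pair had 81 reads in EpiSCs, with a score of 5.04 just above the threshold, and 63 reads (6.73) in Nanog-/- ESCs. The EpiSC list was also the only 1 of the 3 with a contact at the H19 ICR region, chr7:142580249-142582473, with 13 reads and a score of 5.37, just above the threshold. Its nearer edge lies 2.11 kb upstream of the H19 start.

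GGNGGCAG, which is part of the CTCF motif, occurred 5 times in the 2225 bases of that fragment, each time on the strand of H19. Of 550 listed fragments of chromosome 7 within 10% of its length, 59.5% held at least 1 match on either strand. The median was 1, and 3 fragments (0.545%), the H19 fragment among them, held 5 or more. These fragments are matched for length and not for CpG, of which the H19 fragment has 63. GGNGGCAG occurred in 7 of the 44 member promoter windows (15.9%) and in 12.6% of all windows. The matches are shown in capitals with their flanks, each with its distance upstream of the H19 start, because the EpiSC contact turns on this fragment.
2.17 kb, chr7:142580299-142580322: ccgcgtGGTGGCAGtacaatacta
2.62 kb, chr7:142580754-142580777: ccgcgcGGTGGCAGcatactccta
3.65 kb, chr7:142581780-142581803: ccgcacGGCGGCAGtgaagtctcg
3.77 kb, chr7:142581899-142581922: cactagGGGGGCAGgacacatgca
3.89 kb, chr7:142582024-142582047: ccgcgtGGTGGCAGcaaaatcgat
In 4 of the 5, the letters ccgc open the 5′ flank. H19 has no bait of its own name, and its start lies in the bait named Mir675, after the miRNA in its first exon. That bait had 1 contact in WT ESCs, 4 in the EpiSC list, and 15 in Nanog-/- ESCs, which included Nctc1 in both ESC lists and Krtap5-4 in the EpiSC and Nanog-/- lists.

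In the Kcnq1 cluster, the Cdkn1c promoter (bait chr7:143458805-143469591) contacted the body of Kcnq1. All lists held its contacts with the bait of Kcnq1, 362 kb away, with 12 reads (10.55) in WT ESCs, 7 reads (7.13) in EpiSCs, and 7 reads (7.08) in Nanog-/- ESCs, and with the bait of Trpm5, 373 kb away, with scores of 14.15, 13.05, and 9.14. Within Kcnq1, Cdkn1c had 16 contacts with 186 reads in WT ESCs, 27 with 259 reads in EpiSCs, and 11 with 88 reads in Nanog-/- ESCs. They came as near as 130 kb in EpiSCs, against 176 kb in WT ESCs and 257 kb in Nanog-/- ESCs. Over Kcnq1ot1, the noncoding RNA transcribed from the ICR inside Kcnq1, there were 2 contacts in WT ESCs, 6 in the EpiSC list, and 1 in Nanog-/- ESCs. The strongest lay 7.16 kb downstream of the Kcnq1ot1 start, with 20 reads and a score of 17.86 in EpiSCs and 16 reads (8.71) in WT ESCs. The RNA of Cdkn1c was at 37.6 RPKM in WT ESCs, 35.3 RPKM in Nanog-/- ESCs, and 43.3 RPKM in EpiSCs as deposited (23.0 RPKM scaled).

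**Figure D4:**
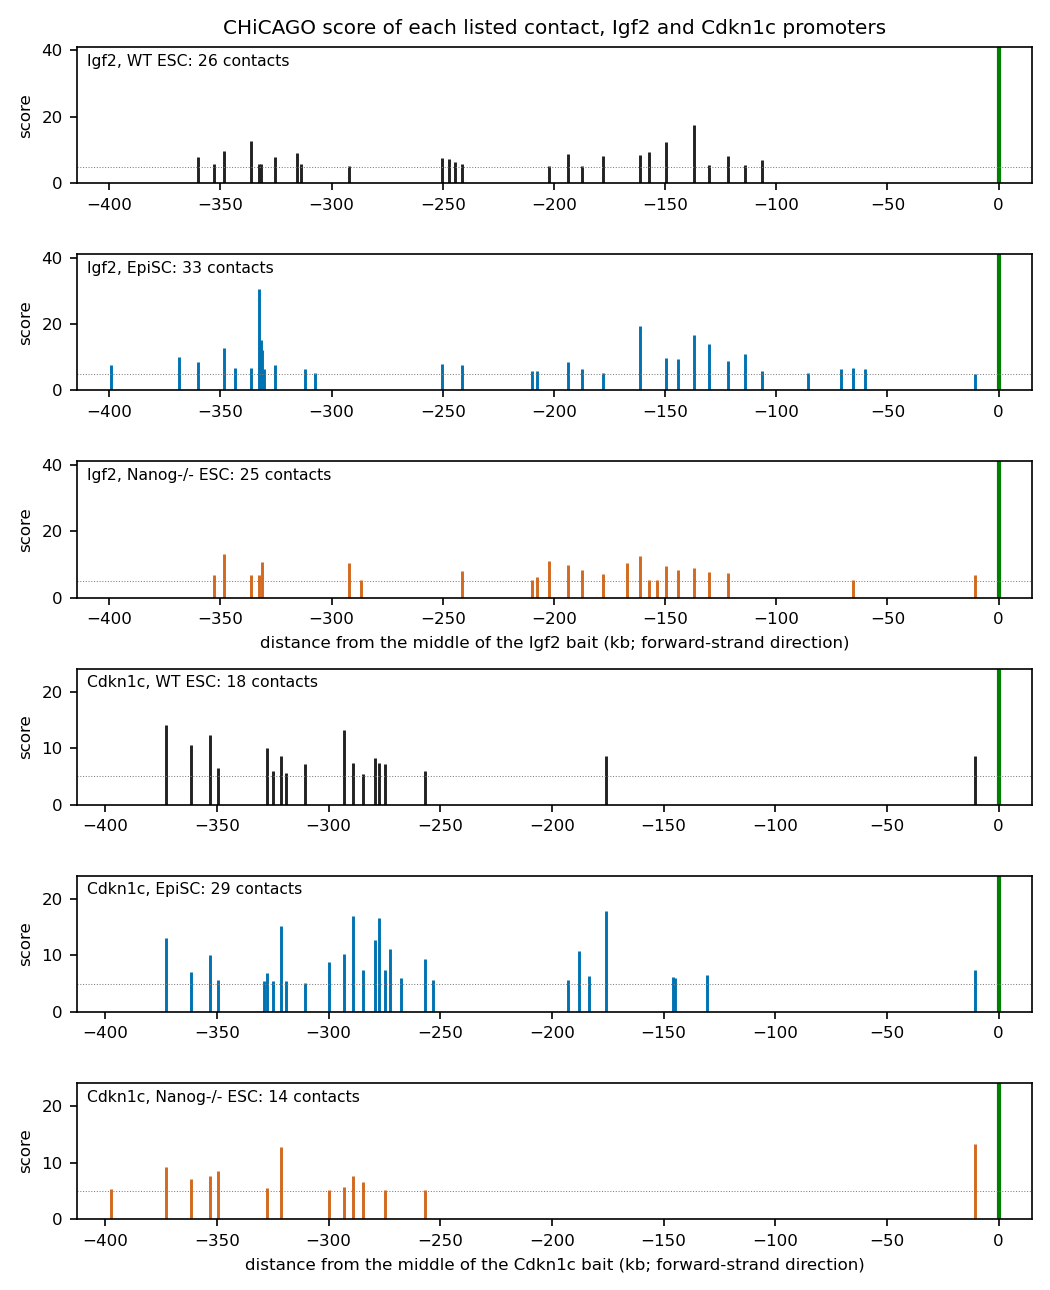
CHiCAGO score of every listed contact of the Igf2 bait (upper 3 panels) and the Cdkn1c promoter (lower 3 panels), by list. Scores stand against the distance in kb from the middle of the bait (green line). The Igf2 bait holds only the most upstream Igf2 start. Igf2 contacts between the bait and 100 kb number 0 in WT ESCs, 5 in the EpiSC list, and 2 in Nanog-/- ESCs, and the Cdkn1c contacts over Kcnq1 number 16, 27, and 11.

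Promoters of this cluster also met each other. Kcnq1 and Slc22a18, 373 kb apart, were joined in all lists, with scores of 6.28 in WT ESCs, 15.41 in the EpiSC list, and 12.27 in Nanog-/- ESCs. Slc22a18 and Trpm5 scored 6.21, 19.59, and 10.23, and Phlda2 and Trpm5 scored 7.91, 7.87, and 6.05. Cd81 and Tssc4, 16.3 kb apart, had 72, 62, and 46 reads. Tssc4 and Slc22a18, 406 kb apart, were joined in EpiSCs (9.08) and Nanog-/- ESCs (8.63) and not listed in WT ESCs. Phlda2 had 8, 4, and 15 contacts, of which 2, 1, and 6 lay over the adjoining Slc22a18. Over all clusters, 31 pairs joined the baits of cluster genes, 19 in WT ESCs, 14 in the EpiSC list, and 28 in Nanog-/- ESCs, and 9 were in all lists.

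The contacts of Asb4 differed in distance between the lists. More than 700 kb away, beyond Sgce, it had 23 contacts with 244 reads in WT ESCs, 4 with 32 reads in EpiSCs, and 9 with 58 reads in Nanog-/- ESCs. Over Casd1, a sialic acid acetyltransferase gene in that stretch, the numbers were 8, 0, and 2. At under 700 kb, it had 10 contacts with 142 reads in WT ESCs, 18 with 228 reads in EpiSCs, and 12 with 92 reads in Nanog-/- ESCs. Over Ppp1r9a alone, a neuronal actin-binding protein gene, there were 5, 14, and 7. The strongest WT ESC contact lay in Casd1, at 741 kb (18 reads, score 18.84), and was not listed in EpiSCs. The strongest EpiSC contact lay in Ppp1r9a, at 270 kb (24 reads, score 15.95). The bait of Sgce, which also holds the start of Peg10, a retrotransposon-derived gene, was joined to Asb4 over 635 kb in WT ESCs with 5 reads (7.83) and in Nanog-/- ESCs with 4 reads (8.12), and not in EpiSCs. Both genes were higher in EpiSCs, by 2.34 for Asb4 and 2.05 for Sgce, and whether RNA and contacts are linked was not tested.

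In the Peg3 cluster, contacts were fewest in Nanog-/- ESCs. The Peg3 bait (chr7:6708428-6731381), which also holds the Usp29 start, had 15 contacts in WT ESCs, 11 in the EpiSC list, and 7 in Nanog-/- ESCs. Its 3 contacts within the Peg3 gene were in all lists, with scores up to 21.17, 17.22, and 21.56. Contacts with the Usp29 introns and exons, 100 kb to 244 kb away, numbered 8, 4, and 0. The bait named Usp29 lies 224 kb from that start, near the far end of the gene, and had 35, 19, and 11 contacts. Zim1, a maternally expressed zinc-finger gene, had 12, 2, and 4 contacts, of which 8, 1, and 1 lay on olfactory receptor genes and their baits.

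**Figure D5:**
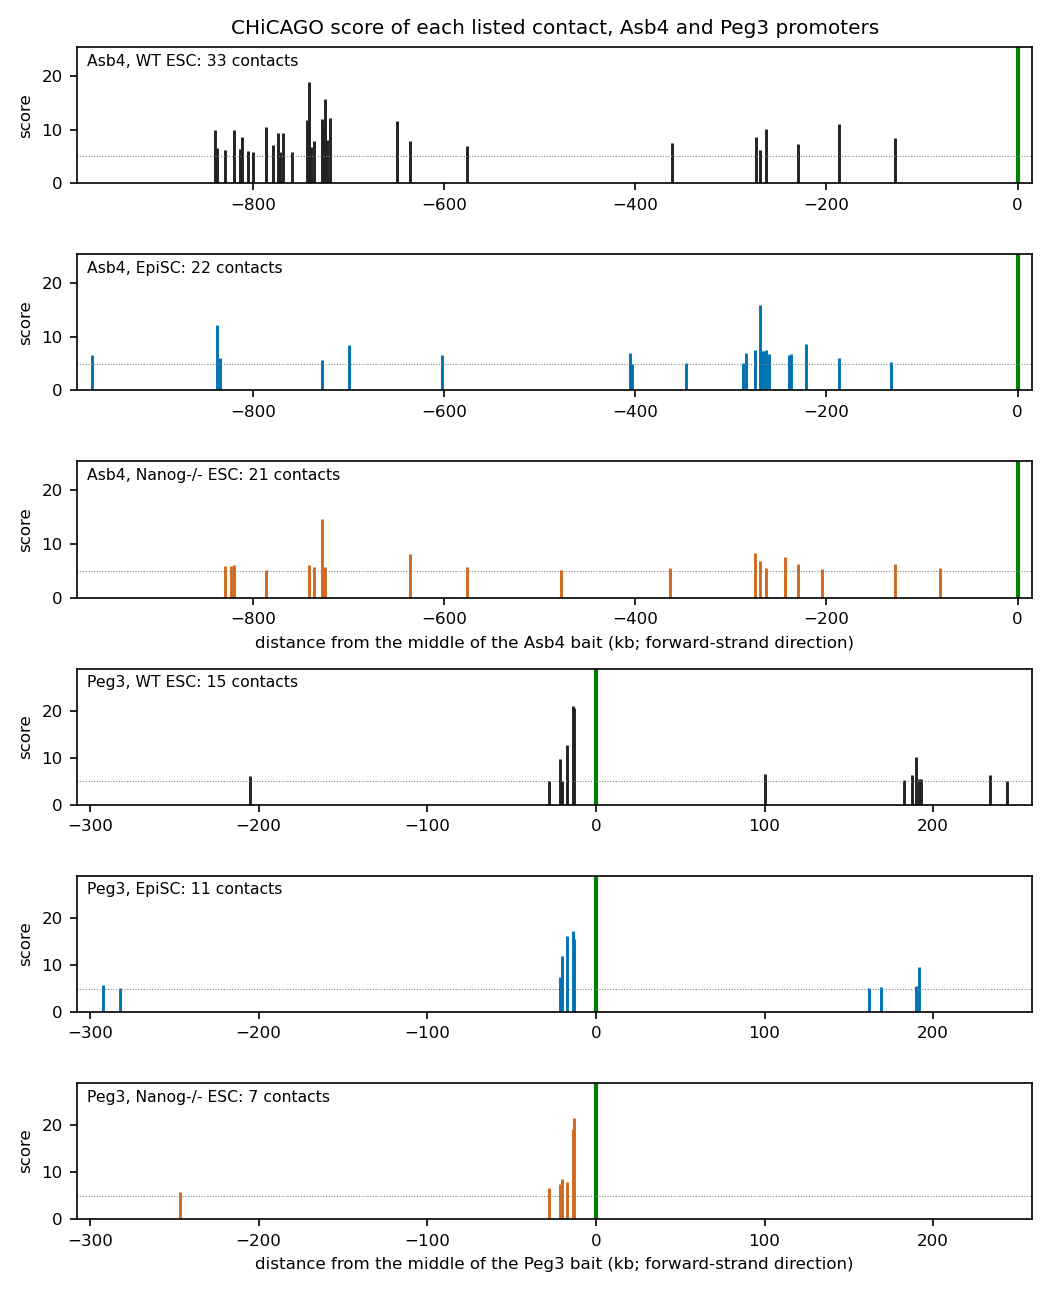
CHiCAGO score of every listed contact of the Asb4 promoter (upper 3 panels) and the Peg3 promoter (lower 3 panels) against its distance in kb from the middle of the bait (green line), by list. Asb4 contacts beyond 700 kb number 23 in WT ESCs, 4 in the EpiSC list, and 9 in Nanog-/- ESCs, and Peg3 contacts over Usp29 number 8, 4, and 0.

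The baits of Mest, Copg2, and Klf14 had 23, 7, and 28 contacts in WT ESCs, 16, 10, and 19 in the EpiSC list, and 11, 4, and 13 in Nanog-/- ESCs. The strongest Mest contact in WT ESCs lay in an intron of Copg2, 82.9 kb away, with scores of 12.80 in WT ESCs, 6.32 in the EpiSC list, and 7.75 in Nanog-/- ESCs. The pairs of Mest with Copg2 (175 kb), with Klf14 (237 kb), and with Tsga13 (194 kb) were in both ESC lists and not in EpiSCs. The bait named Mest holds none of the 3 RefSeq Mest starts, which include the promoter printed above. That promoter lies in the next bait, named Mir335, 16.3 kb away, so the contacts of the bait named Mest are those of the more upstream start in the GENCODE annotation.

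Igf2r and Grb10 are further growth regulators with a long noncoding RNA or an ICR near the gene. Igf2r had 7, 4, and 7 contacts. In WT ESCs, 3 of them lay over Slc22a3, an organic cation transporter gene imprinted in placenta, and its bait was contacted in all lists, 262 kb away, with 20 reads (14.06), 9 reads (7.87), and 6 reads (5.75). In Nanog-/- ESCs, 5 of the 7 lay inside Igf2r, including the bait of Airn at 34.5 kb with 17 reads (6.30), against 0 inside in WT ESCs and 1 in EpiSCs. Grb10 had 8, 9, and 6 contacts, and 1 of them, with Ikzf1, a lymphoid transcription factor gene, 355 kb away, was listed in WT ESCs only, with 14 reads and a score of 12.41. Gnas had 23, 31, and 17 contacts, among them 9, 8, and 7 over the predicted gene Gm14371, 460 kb to 483 kb away, and 3, 6, and 2 over Ppp4r1l-ps. Its bait holds the most upstream of its 4 RefSeq starts, that of the Nesp transcript.

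Zrsr1, a splicing factor retrogene, lies inside Commd1, and the baits of that pair were joined over 6.45 kb in all lists with 82, 71, and 41 reads. Nnat had 15, 12, and 15 contacts, among them the bait of Gm14286, near Blcap, at 11.4 kb with 95, 46, and 44 reads, and a stretch over Ghrh. The baits of Ndn and Magel2 had 2, 0, and 0 and 4, 2, and 1 contacts. The Zrsr1 bait also contacted an intergenic block 232 kb to 349 kb away, with 7, 8, and 4 contacts there. That bait lies 1.01 kb from the Zrsr1 start and does not hold it. Inpp5f had 2, 4, and 1 contacts, Nap1l5 had 5, 5, and 1, Commd1 had 7, 3, and 4, and Ddc had 8, 4, and 5. Plagl1 had 1, 2, and 0, and its contact over 382 kb with Phactr2, a phosphatase and actin regulator gene, was in both the WT ESC (5.91) and EpiSC (10.81) lists. Ndn, Sgce, and Plagl1 were thus higher in EpiSCs with 0 to 2 contacts in any list.

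Dlk1 and Rtl1, a retrotransposon-derived gene needed in placenta, are paternally expressed, and the miRNAs beyond them are processed from maternal noncoding RNAs. In the Dlk1 cluster, Dlk1 had 0, 3, and 2 contacts and Rtl1 had 8, 6, and 3, and all of the former and 7, 4, and 2 of the latter were with baits that hold miRNA genes. Rtl1 contacted such baits 7 times in WT ESCs with 146 reads, 4 times in EpiSCs with 56 reads, and 2 times in Nanog-/- ESCs with 23 reads. The baits of Mir541 and Mir667, 141 kb and 122 kb away, were contacted in all lists, the first with scores of 8.78, 10.03, and 9.13. Dlk1 contacted Mir382, Mir154, and Mir541 in EpiSCs, 281 kb to 290 kb away, with 4 reads each, and Mir341 and Mir541 in Nanog-/- ESCs. The RNA of Rtl1 was at 0.659 RPKM in WT ESCs, 1.34 RPKM in Nanog-/- ESCs, and 0.160 RPKM in EpiSCs. Mature miRNAs from these partner fragments are shown to identify them, with the seed (bases 2 to 8) in capitals. The partner baits matched by name to mature miRNAs gave 14 of them, both arms of each name, with 14 different seeds. Rtl1 had 8 partner baits named after miRNAs over the lists, and not all of them were matched. The fragments hold further miRNA hairpins, and miRNA levels were not measured.
mmu-miR-541-5p: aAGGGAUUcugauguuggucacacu
mmu-miR-541-3p: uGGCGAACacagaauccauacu
mmu-miR-667-3p: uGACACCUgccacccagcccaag
mmu-miR-382-5p: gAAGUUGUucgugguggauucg
mmu-miR-154-5p: uAGGUUAUccguguugccuucg
mmu-miR-379-5p: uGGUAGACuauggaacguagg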

How the data were processed

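The authors processed the PCHi-C reads with HiCUP, called contacts between single HindIII fragments with CHiCAGO, and normalized and combined 2 biological replicates into 1 deposited list per population, with a whole-number read value and a CHiCAGO score for each pair. The read values are therefore rounded normalized values and not raw counts. For RNA, the authors deposited the median RPKM of each group. The submitters' processing notes name Trim Galore, Bowtie 1.1.0, TopHat, and DESeq2 with GRCm38/mm10, without the role of each. Columns with the authors' own log2 fold changes and significance calls for both comparisons were not used. The column named BT12 was taken as the Nanog-/- line.

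RNA rows that repeated a gene were left out (93), as were 2 rows without a value. EpiSC RPKM were divided by the median EpiSC to WT ESC ratio of genes with at least 1 RPKM in both. Differences were taken on log2(RPKM + 1), and genes with at least 1 RPKM in either group were called at 2-fold. The lists were compared by identical fragment pairs. Shares have Wilson 95% intervals, which cover counting error only and treat pairs of the same bait as independent. The depth behind the RPKM values is unknown. Contacts were annotated with GENCODE M21. All members were named, with their strongest contacts and contacts between baits of a cluster, and other listed genes mainly where a member contacted their bait. The members and lists were chosen with earlier results of these data known. Python 3.11.15, pandas 2.3.3, numpy 2.4.6, and scipy 1.17.1 were used, and the steps were tested on simulated data. The alternatives were another scaling, pseudocount, filter, score threshold, matching distance, and cluster flank. Some contacts are not reported here.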

Additional observations from a re-analysis of the deposited data

How the results depend on the processing

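The values used here are 1 median or 1 combined list per population, so no difference was weighed against replicate spread. No paired analysis was possible because the deposited table and lists hold 1 value per group, and for the same reason leaving out single replicates was not run. With EpiSC values unscaled, 16 members were higher (adding Cd81, Tssc4, Zrsr1, Copg2, Ube3a, and Dlk1) and 1 lower, against 43.0% and 8.27% of all genes. A pseudocount of 0.1 added Dlk1 to the members higher in EpiSCs (1.29) and Slc22a18 to those lower in Nanog-/- ESCs (-1.12). The other RNA alternatives (scaling from genes with at least 10 RPKM, no filter, and a scaled Nanog-/- column) changed no member count by more than 1.5 times.

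The share of WT ESC member pairs recurring in EpiSCs was 56.2% for pairs scoring at least 7 (all pairs 57.8%) and 68.4% when the other end could lie within 10 kb (63.2%). For Nanog-/- ESCs it was 53.7% (60.4%) and 62.3% (63.8%). With each list cut to its 74931 strongest pairs, which was added once the data had been seen, the shares were 45.5% (all pairs 42.2%) in EpiSCs and 43.5% (48.1%) in Nanog-/- ESCs. The share of contacts inside the cluster was 38.6%, 39.2%, and 49.1% in WT ESCs, EpiSCs, and Nanog-/- ESCs without a flank, and 97.3%, 95.8%, and 99.1% with a flank of 500 kb.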

Other observations

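Imprinted genes outside the clusters described above were measured in the same RNA table, with 7 of 11 listed genes found and 5 of them at 1 RPKM or more. Of these 5, 0 were at least 2-fold higher in EpiSCs and 2 were lower, against 15.5% and 14.4% of all genes. Slc38a4, a paternally expressed amino acid transporter gene, was at 144 RPKM in WT ESCs, 105 RPKM in Nanog-/- ESCs, and 0.755 RPKM in EpiSCs as deposited, a scaled difference of -6.69. Sfmbt2, a paternally expressed Polycomb-group gene, was at 18.1, 5.55, and 6.70 RPKM, a scaled difference of -2.07 in EpiSCs and a difference of -1.55 in Nanog-/- ESCs. Mcts2, H13, and Trappc9 were within 2-fold in both comparisons after scaling of the EpiSC values, with H13 at 7.24, 8.54, and 25.0 RPKM as deposited. The genes named here were chosen after their values were seen.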
